A study of Mus musculus with 12 samples.

Results

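The early B lymphoid genes described here are 10 genes, Pax5, Ebf1, Vpreb1, Igll1, Cd79a, Cd79b, Rag1, Dntt, Il7r and Blnk. They were taken by name from a table of raw counts for 33924 mouse genes, and all 10 were found. Of these, 8 had enough counts to be tested, among 10604 tested genes in all. Igll1 and Cd79a did not pass the filter on low counts and were only described. The filter can be passed through 1 high group, so no share of these 8 genes is offered as support for a difference.

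B cells arise in bone marrow from lymphoid progenitors under interleukin-7 signalling. The transcription factor Ebf1 starts the B cell programme and Pax5 holds it in place by repressing genes of other lineages. Rag1 cuts the immunoglobulin loci, Dntt adds untemplated bases at the joins, and the first heavy chain is shown at the surface with a surrogate light chain made of Vpreb1 and Igll1, where Cd79a and Cd79b carry its signal to the adaptor Blnk. Myeloid progenitors are the precursors of granulocytes, monocytes, erythroid cells and platelets, and commitment to the B lineage is not part of their usual path.

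RNA of sorted bone marrow cells was sequenced from 12 libraries with a Lexogen kit for the 3′ ends of mRNA, so that a transcript gives about the same number of reads whatever its length. The sort took single live cells that were negative for lineage markers and Sca1 and positive for c-Kit, and the labels call them myeloid progenitors. The design set cells with 1 floxed Wt1 allele against cells of controls of the same age. Wt1 encodes a zinc finger transcription factor mutated in some acute myeloid leukaemias. Old control and young control are Mx+ Wt1+/+ mice, and old het and young het are Mx+ Wt1fl/+ mice, with 3 libraries in each of the 4 groups. Controls as well as hets carry Mx, the Mx1-Cre transgene of this study, whose promoter responds to interferon and is not limited to blood progenitors. The labels give no ages in weeks and list no treatment, so the sources used here do not say when or whether Cre was induced. Every old library is labelled chronic and every young library acute, so age and that condition cannot be told apart. The labels do not say whether libraries of a group came from separate animals, and p-values measure only the spread between these libraries.

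Total counts ran from 645460 to 9645502 per library, and 3 counts correspond to between 0.275 and 5.10 CPM, which are counts scaled to library size. Wt1 had 1 to 23 counts per library, too few to be tested, and a 3′ read outside the deleted part does not check the genotype. Mpo, which encodes the myeloperoxidase of granule-forming progenitors, lay between 1552 and 8476 CPM, and Kit, the receptor used in the sort, between 96.5 and 291 CPM. Old control 1 stood apart: 51 of the tested genes (0.481%) were at least 4 times as high there as in any other library, with lymphoid, MHC class II and stem cell genes among them, against 14 in young control 3 and 0 to 2 in each of the others. Ly6a, which encodes the Sca1 antigen that the sort selects against, had 762 of its 768 counts in old control 1. Results that rest on old control 1 are given with and without it. Titles number young controls 1 and 2 as 29 and 30, and young control 3 and the young hets as 18 to 21. RNA of sex-linked genes also set young controls 1 and 2 apart from all young hets. The part of either was not tested in any comparison that holds the young controls, including old against young controls.

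Promoter sequences of 4 members are shown because the results turn on Pax5, Ebf1 and Vpreb1, and because Igll1 encodes the partner of Vpreb1. Each runs 5′ to 3′ along the gene's strand, from 250 bases before to 50 bases after a RefSeq start site in build GRCm38.p6, and Ebf1 is shown at the first of its 2 RefSeq starts. Capitals mark the E-box letters CACCTG or CAGGTG, which are the same site read from either strand and are a form that E proteins such as the product of Tcf3 can bind.
Pax5 (chr4:44710645-44710944, minus strand): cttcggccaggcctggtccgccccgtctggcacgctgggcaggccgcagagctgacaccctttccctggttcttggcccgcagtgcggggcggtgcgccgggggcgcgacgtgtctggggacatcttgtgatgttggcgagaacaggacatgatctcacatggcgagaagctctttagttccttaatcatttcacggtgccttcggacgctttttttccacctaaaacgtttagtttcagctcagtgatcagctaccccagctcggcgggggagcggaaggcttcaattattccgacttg
Ebf1 (chr11:44617850-44618149, plus strand): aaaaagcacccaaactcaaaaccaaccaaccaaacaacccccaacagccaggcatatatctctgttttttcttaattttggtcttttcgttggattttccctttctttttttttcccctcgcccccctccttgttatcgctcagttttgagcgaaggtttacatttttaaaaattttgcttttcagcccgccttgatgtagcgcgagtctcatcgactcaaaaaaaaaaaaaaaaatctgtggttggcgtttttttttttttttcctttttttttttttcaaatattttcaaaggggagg
Vpreb1 (chr16:16869206-16869505, minus strand): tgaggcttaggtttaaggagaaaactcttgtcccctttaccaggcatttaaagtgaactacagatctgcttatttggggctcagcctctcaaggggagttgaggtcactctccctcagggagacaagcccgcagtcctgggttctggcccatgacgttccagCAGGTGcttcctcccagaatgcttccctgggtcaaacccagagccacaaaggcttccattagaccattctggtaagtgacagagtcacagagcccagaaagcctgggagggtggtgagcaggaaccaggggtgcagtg
Igll1 (chr16:16863936-16864235, minus strand): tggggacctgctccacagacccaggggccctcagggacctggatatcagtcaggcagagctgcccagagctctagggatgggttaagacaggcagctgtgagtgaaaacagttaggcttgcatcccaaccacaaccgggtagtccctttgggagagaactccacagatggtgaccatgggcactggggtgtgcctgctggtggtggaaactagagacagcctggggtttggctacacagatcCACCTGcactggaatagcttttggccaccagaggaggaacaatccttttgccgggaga
The E-box letters were found in 5 of the 9 members with a RefSeq promoter and in 20.21% of all 32851 promoters of that length. They began 88 bases before the start site of Vpreb1 and 8 bases before that of Igll1, and were also present for Rag1, Cd79a and Blnk. The letters TCCC and GGGA 2 bases apart, a palindrome of the form bound by EBF1, was searched on both strands and was found in 0 of the 9 windows and in 0.904% of all promoters. These matches describe letters in the windows only.

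The early B genes were measured unequally in this gate. Vpreb1, Dntt and Ebf1 had the highest mean levels of the 10, whereas Cd79a was almost undetected. Summed over the 10 members, the level lay between 218 and 306 CPM in the young controls and between 110 and 153 CPM in the young hets. The sum was 63.1, 47.3 and 101 CPM in the old hets, 40.3 and 74.3 CPM in old controls 2 and 3, and 426 CPM in old control 1. Dntt alone made up most of the value in old control 1, where the other 9 members summed to 72.7 CPM. Without Dntt, the summed level of every young library (107 to 268 CPM) lay above that of every old library (28.3 to 73.6 CPM). That sum is weighted to Vpreb1, Ebf1 and Pax5, at means of 53.07, 24.8 and 14.35 CPM over the 12 libraries. Each of the other members in it had a mean of 9.53 CPM or below. Taken singly, only Vpreb1 had every young library above every old one, so the sum does not describe each member. A lower value in sorted cells can come from fewer cells of a type or from less RNA per cell, which cannot be told apart here.

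**Figure D1:**
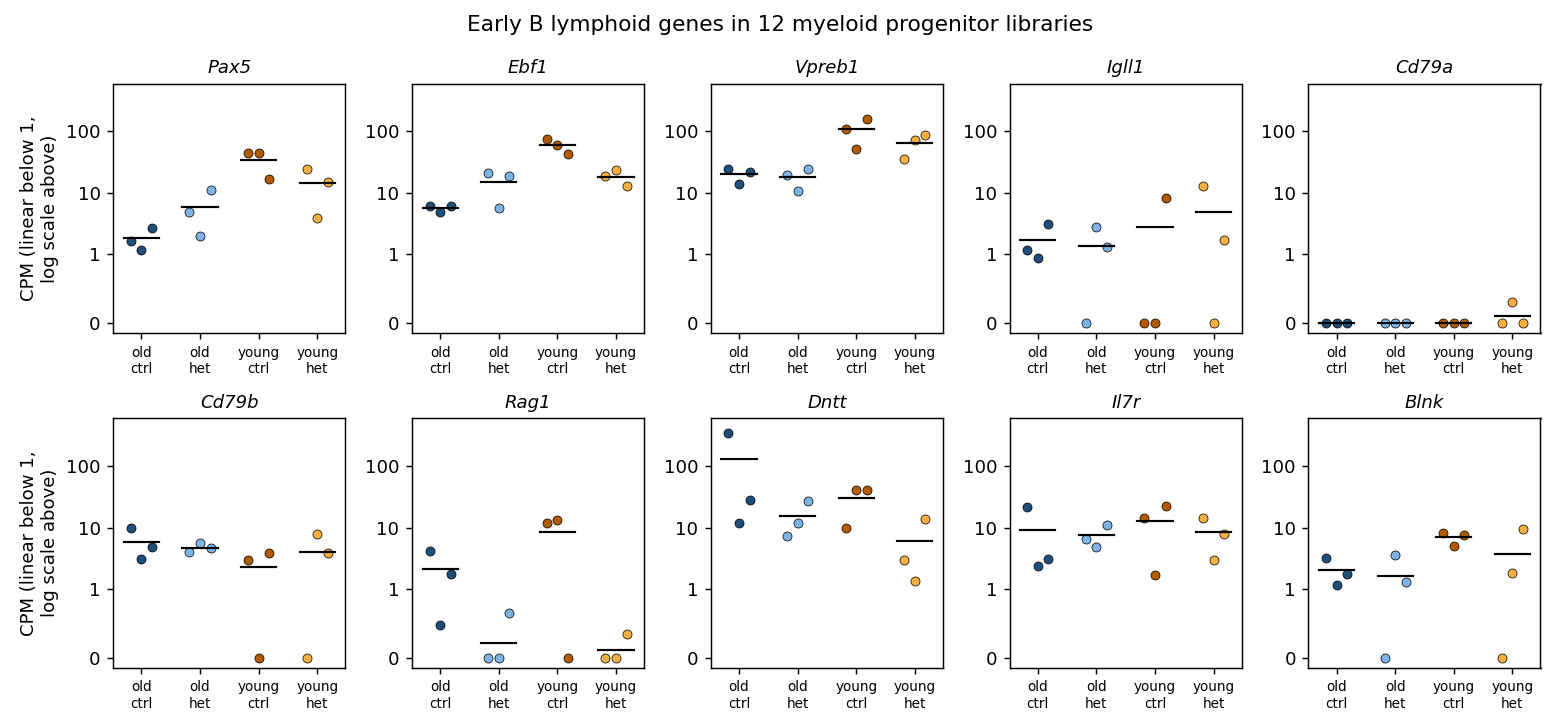
Level of each early B lymphoid gene in CPM (vertical axes, all on the same scale, linear below 1 and logarithmic above) in the 12 libraries of the 4 groups (horizontal axes); points are libraries and bars are group means. Vpreb1 was at or below 24.5 CPM in the old libraries and at or above 36.0 CPM in the young ones, and Dntt was at 353 CPM in old control 1.

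Old controls had less RNA of Pax5, Ebf1 and Vpreb1 than young controls. Of the 8 tested members, 3 were lower and 0 higher in old controls by edgeR's quasi-likelihood test at an adjusted p of 0.05, where 6.98% of all tested genes passed in either direction and 4.19% were lower. The median log2 change was -1.84 over the 8 tested members and 0.22 over all tested genes. With library totals in place of TMM scaling, the lower share of all calls went from 60% to 30.82%, the median of all genes moved by 0.298 on the log2 scale, and the 3 members still passed as lower. DESeq2 and limma-voom also called 3 members, where they called 12.2% and 4.88% of all tested genes. Groups did not overlap for 4 of these members, all lower in old controls. Of all tested genes, 31.2% did not overlap in either direction and 12.2% did so with old controls lower.

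Ebf1, the factor that starts the B cell programme, was at 74.4, 61.2 and 43.6 CPM in young controls 1 to 3 and at 6.14, 4.95 and 6.19 CPM in old controls 1 to 3. The 2 groups did not overlap, and the old controls lay close together. The log2 change of Ebf1 from young to old controls was -3.37 (SE 0.59, adjusted p = 0.00221 by edgeR's quasi-likelihood test). Old hets 1 to 3 had 21.03, 5.61 and 19.04 CPM of Ebf1, and young hets 1 to 3 had 18.8, 23.6 and 13.1 CPM. The ranges of Ebf1 in hets of the 2 ages overlapped, with a log2 change of -0.31 (SE 0.55, adjusted p = 0.965 by the same edgeR test). Ordered by mean level, Ebf1 was highest in young control at 59.7 ± 15.5 CPM (SD, n = 3), then young het at 18.5 ± 5.23, old het at 15.2 ± 8.39 and old control at 5.76 ± 0.70. The middle 2 groups did not differ beyond their spread.

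Pax5, which commits cells to the B lineage, was at 44.0, 44.2 and 16.8 CPM in young controls 1 to 3 and at 1.65, 1.18 and 2.65 CPM in old controls 1 to 3. Every old control lay below every young control, at 5 to 18 counts per library. The log2 change of Pax5 was -4.27 (SE 0.90, adjusted p = 0.00752 by edgeR's quasi-likelihood test). Among hets, Pax5 was at 4.85, 2.004 and 11.2 CPM in old and at 24.9, 3.90 and 14.8 CPM in young libraries 1 to 3. Those ranges overlapped, since young het 2 lay below old hets 1 and 3. The log2 change of Pax5 between hets was -1.28 (SE 0.81, adjusted p = 0.87, edgeR). Mean levels of Pax5 ran in the order young control (35.0 ± 15.8 CPM, SD, n = 3), young het (14.5 ± 10.5), old het (6.01 ± 4.69) and old control (1.83 ± 0.75), and each group overlapped its neighbour in that order.

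Vpreb1, the variable-like part of the surrogate light chain, was at 112, 51.0 and 162 CPM in young controls and at 24.5, 14.1 and 22.1 CPM in old controls 1 to 3. The log2 change of Vpreb1 between controls was -2.43 (SE 0.49, adjusted p = 0.00585 by edgeR's quasi-likelihood test). Young hets 1 to 3 had 36.0, 73.0 and 88.0 CPM of Vpreb1, and old hets 19.4, 10.8 and 24.3 CPM. Thus all 6 young libraries lay above all 6 old libraries for this gene. Mean levels of Vpreb1 were 108 ± 55.6 CPM (SD, n = 3) in young control, 65.6 ± 26.8 in young het, 20.3 ± 5.44 in old control and 18.2 ± 6.82 in old het, with overlap within each age.

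In hets, 0 of the 8 tested members passed between old and young by edgeR's quasi-likelihood test, where 0.00943% of tested genes did. Vpreb1 was the 1 member with an unadjusted p under 0.05, as 6.28% of tested genes had. It was also the 1 member whose groups did not overlap, as for 6.95% of tested genes with old hets lower. Its log2 change was -1.87 (SE 0.49, adjusted p = 0.568 by edgeR's quasi-likelihood test). DESeq2 and limma-voom also called 0 members there. Averaged over both genotypes, 3 members were lower in old than in young libraries by the edgeR test, again Pax5, Ebf1 and Vpreb1, against 4.26% of tested genes in either direction and 2.66% lower. The average log2 change was -2.78 for Pax5 (SE 0.60, adjusted p = 0.0124), -1.84 for Ebf1 (SE 0.40, adjusted p = 0.0124) and -2.15 for Vpreb1 (SE 0.35, adjusted p = 0.00253). Old and young libraries of both genotypes did not overlap for Vpreb1, as for 0.971% of tested genes with old lower, but overlapped for Pax5 and Ebf1.

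**Figure D2:**
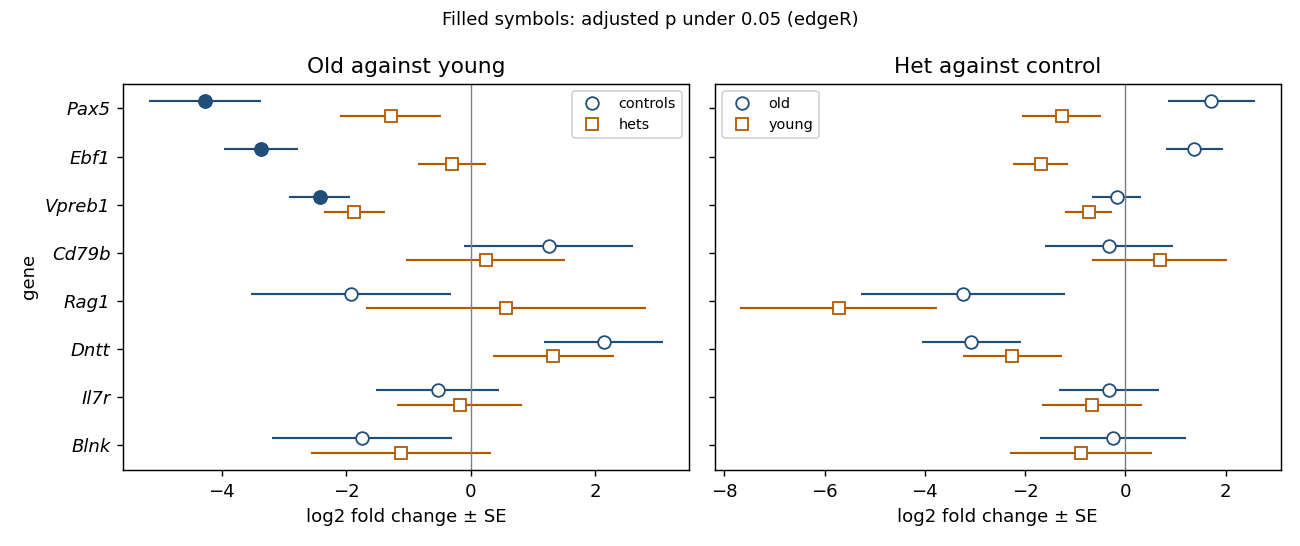
Log2 fold change ± SE of the 8 tested members (horizontal axes) by gene (vertical axis), for old against young on the left and het against control on the right. Filled symbols, the circles of Pax5, Ebf1 and Vpreb1 for old against young controls, have an adjusted p under 0.05 by edgeR's quasi-likelihood test, and no symbol of the right panel is filled.

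The 3 lower calls between controls held without old control 1, at a log2 change of -4.22 for Pax5 (adjusted p = 0.0384), -3.43 for Ebf1 (adjusted p = 0.0139) and -2.62 for Vpreb1 (adjusted p = 0.0219), all by edgeR. With the share of mitochondrial rRNA per library as a covariate, none of the 3 passed, at -2.71 for Pax5 (adjusted p = 0.464), -2.41 for Ebf1 (adjusted p = 0.336) and -2.91 for Vpreb1 (adjusted p = 0.261). That fit called 0 of all tested genes in this comparison. Mitochondrial rRNA took 4.35 to 8.22% of counts in young controls and 1.70 to 2.38% in old controls, with no overlap. In the old hets, the share was 4.78% and 4.75% in libraries 1 and 3, which had the higher Ebf1 levels, and 1.40% in library 2. In the young hets it was 2.999 to 3.51%. Itgam, a surface integrin of mature myeloid cells that belongs to usual lineage panels, was 247 to 1247 CPM in young controls and 42.0 to 113 CPM in old controls, a log2 change of -3.43 (adjusted p = 0.00117, edgeR). The part of RNA composition or of mature cells in the early B result was not tested beyond that fit.

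**Figure D3:**
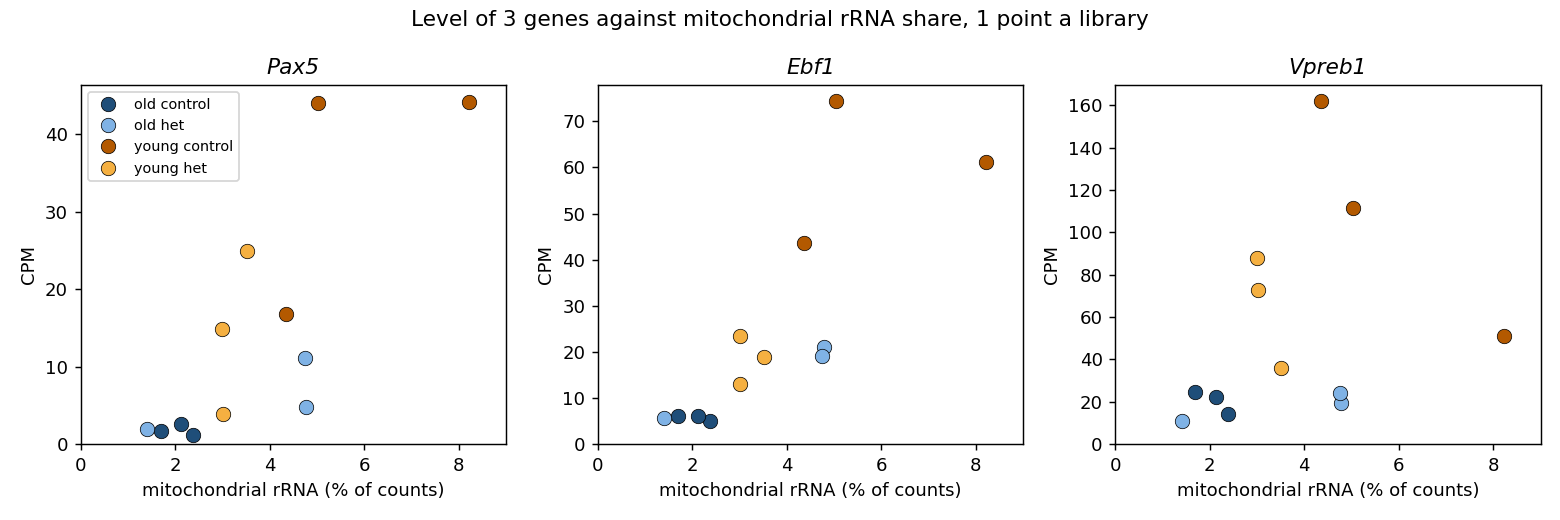
Levels of Pax5, Ebf1 and Vpreb1 in CPM (vertical axes) against the share of counts from mitochondrial rRNA in percent (horizontal axes), 1 point per library, by group. Young controls, at 4.35 to 8.22% mitochondrial rRNA, had the highest mean level of each gene. Old hets 1 and 3, at 4.78 and 4.75%, had Pax5 at 4.85 and 11.2 CPM, Ebf1 at 21.03 and 19.04 CPM and Vpreb1 at 19.4 and 24.3 CPM. Old het 2, at 1.40%, had 2.004, 5.61 and 10.8 CPM of these genes in that order.

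Reads of Vpreb1 can also belong to its near-identical copy Vpreb2, since their transcripts were 97.36% identical over 759 aligned bases. Vpreb2 was much lower, at 6.11 to 15.3 CPM in young controls and at 0 to 0.442 CPM in old controls. With the deposited counts of both genes added, the log2 change between controls was -2.54 (adjusted p = 0.00323, edgeR). The sources used here do not say how reads matching both genes were counted. Adding the counts cannot recover reads left out of both. The start of Vpreb1 overlaps that of Top3b on the opposite strand, and the sources used here do not give the strand setting of the counts. Top3b, a topoisomerase gene, lay between 38.9 and 86.8 CPM in the 12 libraries, with a log2 change of -0.18 between controls (adjusted p = 0.818, edgeR).

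Igll1, the constant-like partner of Vpreb1 in the surrogate light chain, had 92 counts over 8 libraries and was not tested. It reached 12.8 CPM in young het 1, 8.41 CPM in young control 3 and 3.10 CPM in old control 3, and had 0 counts in old het 1, young controls 1 and 2 and young het 2. The group means of Igll1 were 4.82 ± 6.93 CPM in young het, 2.80 ± 4.85 in young control, 1.74 ± 1.18 in old control and 1.37 ± 1.40 in old het (SD, n = 3 each), and the libraries of all groups overlapped. Thus Igll1 did not show the separation by age that Vpreb1 showed, at a depth where a count of 0 allows up to 5.10 CPM in young control 2.

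The signalling chains of the B cell receptor were low throughout. Cd79a had 2 counts in all, both in young het 2, or 0.300 CPM there, and a count of 0 in the other 11 libraries allows between 0.275 CPM in old control 1 and 5.10 CPM in young control 2. Cd79b was counted in 10 libraries, at 9.89, 3.07 and 4.86 CPM in old controls, 4.04, 5.61 and 4.60 CPM in old hets, 3.04, 0 and 3.82 CPM in young controls and 0, 7.96 and 3.92 CPM in young hets 1 to 3. Groups of Cd79b overlapped in every comparison made, and its log2 change from young to old controls was 1.26 (SE 1.36, adjusted p = 0.62, edgeR).

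Blnk, the adaptor that links the receptor to calcium signalling, was at 3.21, 1.18 and 1.77 CPM in old controls and at 8.35, 5.10 and 7.64 CPM in young controls 1 to 3. These groups did not overlap, but the counts were few and the log2 change of -1.75 (SE 1.45, adjusted p = 0.5, edgeR) did not pass. Blnk was at 0, 3.61 and 1.31 CPM in old hets and at 0, 1.80 and 9.55 CPM in young hets 1 to 3, with overlap between all het and control groups of an age. Il7r, the alpha chain of the interleukin-7 receptor, was at 21.9, 2.36 and 3.10 CPM in old controls, 6.47, 4.81 and 11.2 CPM in old hets, 14.4, 1.70 and 22.9 CPM in young controls and 14.4, 3.003 and 8.01 CPM in young hets. Its libraries varied as widely within a group as between groups, and no comparison of Il7r had an unadjusted p under 0.05.

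Dntt, the terminal transferase of lymphoid progenitors, was at 353, 12.02 and 28.7 CPM in old controls 1 to 3. Old control 1 held 90.87% of all Dntt counts, and its level was 8.65 times that of the next library. The other groups were at 7.28, 12.02 and 27.6 CPM in old hets, 9.87, 40.8 and 40.5 CPM in young controls and 3.02, 1.35 and 14.0 CPM in young hets 1 to 3. The mean of 131 ± 192 CPM in old control (SD, n = 3) therefore describes 1 high and 2 low libraries, and the order of the group means is set by it. Between old het and old control the log2 change of Dntt was -3.07 (SE 0.98, unadjusted p = 0.00524, adjusted p = 0.999, edgeR), and without old control 1 it was -0.37. Between old and young controls it was 2.14 (SE 0.95, adjusted p = 0.181, edgeR) and turned to -0.58 without old control 1. The edgeR fit of every gene with a count, old control 1 included, called Dntt higher in old controls (2.12, adjusted p = 0.00188).

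Part of the lymphoid, antigen-presenting and stem cell genes of the lists were also highest in this library. It had the highest level for 9 of 15 early lymphoid progenitor genes, 8 of 13 T cell genes, 5 of 6 plasmacytoid dendritic cell genes, 4 of 10 mature B cell genes, 7 of 8 MHC class II genes and 9 of 9 stem cell genes that had a count. The same held for 8 of 21 pre-B receptor genes, 5 of 19 B lineage transcription factors, 1 of 5 plasma cell genes and 1 of 10 NK cell genes. For the 13 genes of V(D)J recombination and end joining, the 6 myeloid and the 4 erythroid progenitor genes this number was 0. The share of all tested genes that were highest in old control 1 is not given here. Notch1, a receptor needed for T cell fate, was lowest in old control 1 at 3.75 CPM. Cd3g, a further chain of the T cell receptor complex, had 0 counts there but only 1 count in all, too few to describe this library. Cd74, the invariant chain of MHC class II, was at 202 CPM in old control 1 and at 1.62 to 19.9 CPM in the other 11 libraries. Cd27, a receptor of the tumour necrosis factor family that marks lymphoid-primed progenitors, was at 238 CPM there and at 13.6 to 37.3 CPM elsewhere. Flt3, a receptor of multipotent and lymphoid progenitors, was at 34.9 CPM there and at 1.52 to 25.5 CPM elsewhere. Siglech, a receptor of plasmacytoid dendritic cells, had 116 of its 120 counts in this library, and Cd3e, a chain of the T cell receptor complex, all 55 of its counts. Procr, an antigen of stem cells, was at 49.5 CPM there and at 0 to 4.04 CPM elsewhere. Of the other members, Pax5, Ebf1, Vpreb1, Rag1, Il7r and Blnk in old control 1 lay within the range of the other 11 libraries, and Cd79b, at 9.89 CPM, was the highest of the 12. Among the old controls alone, Il7r was at 21.9 CPM in old control 1 against 2.36 and 3.10 CPM in old controls 2 and 3. Rag1 was at 4.21 CPM against 0.471 and 1.77 CPM. Vpreb1 and Blnk were also highest of the old controls in old control 1, whereas Pax5 and Ebf1 lay between old controls 2 and 3.

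**Figure D4:**
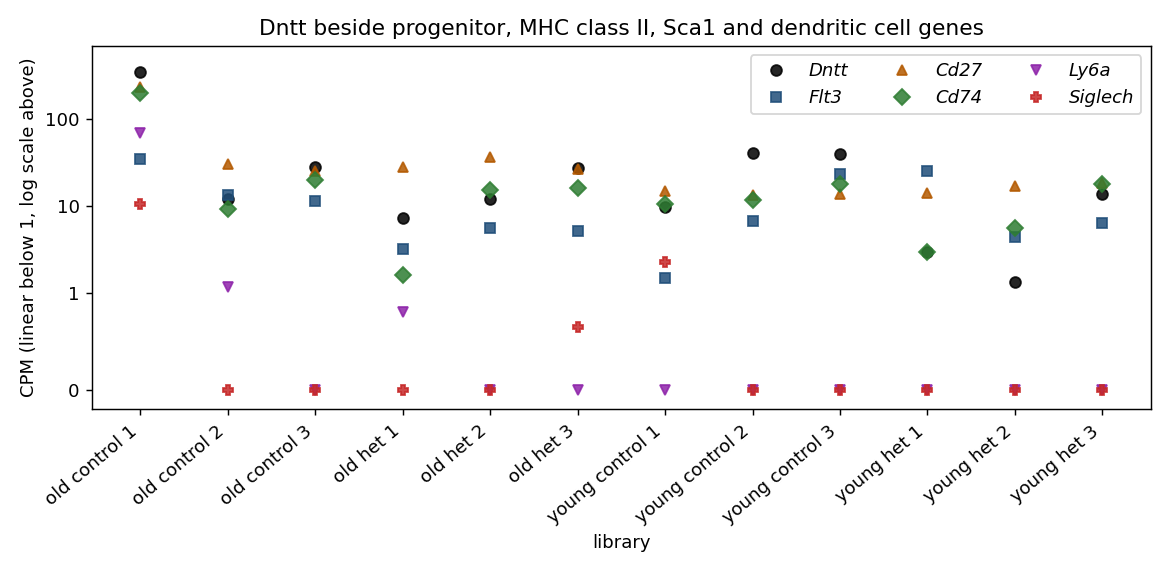
Levels in CPM (vertical axis, linear below 1 and logarithmic above) of Dntt, Flt3, Cd27, Cd74, Ly6a and Siglech in each library (horizontal axis), 1 symbol per gene. Old control 1, at the left, was at 353 CPM for Dntt and 202 CPM for Cd74; several points of Ly6a and Siglech coincide at 0 counts.

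Rag1, the recombinase that cuts immunoglobulin and T cell receptor loci, was at 12.2, 13.6 and 0 CPM in young controls and at 0, 0 and 0.341 CPM in young hets 1 to 3. In the old groups it was at 4.21, 0.471 and 1.77 CPM in controls and at 0, 0 and 0.657 CPM in hets. In all, 3 counts of Rag1 were found in the 6 het libraries, and 76 in the 6 controls. Old control 1 held 46 of the 76, and the other 5 controls had 30. The groups overlapped in young mice because young control 3 had 0 counts, and in old mice because old control 2 lay below old het 3. The log2 change of Rag1 was -5.72 in young het against young control (SE 1.96, adjusted p = 0.184) and -4.47 averaged over both ages (SE 1.39, adjusted p = 0.624), both by edgeR's quasi-likelihood test and neither past the threshold. Rag1 overlaps the gene B230118H07Rik on the same strand, so reads in the overlap could be assigned to either or left out of both. B230118H07Rik was at 15.3 to 32.9 CPM in young controls and at 70.6 to 88.4 CPM in young hets, a log2 change of 1.78 that did not pass (adjusted p = 0.117, edgeR). It was at 55.0 to 136 CPM in old controls and at 33.2 to 156 CPM in old hets, with a log2 change of -0.27 (adjusted p = 0.999, edgeR).

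By edgeR with the filter on low counts, none of the early B genes passed between het and control at either age, while other fits called Ebf1 or Dntt. In young mice, 0 of the 8 tested members passed by edgeR's quasi-likelihood test, against 0.424% of tested genes, and 3 had an unadjusted p under 0.05 against 14.0% of tested genes, namely Ebf1, Rag1 and Dntt, each with a negative log2 change. DESeq2 called 1 member, Ebf1, where it called 3.35% of all tested genes, and limma-voom called 0. With every gene that had a count in the edgeR fit, 1 member passed, Dntt at -2.22 (adjusted p = 0.00641), and 1.37% of all genes did. Ebf1 was the 1 member whose young het and young control libraries did not overlap, as 7.12% of tested genes did with hets lower, at a log2 change of -1.69 (SE 0.55, adjusted p = 0.165, edgeR). By DESeq2 the log2 change of Ebf1 was -1.76 (adjusted p = 0.0365). Values for Pax5 (-1.27, SE 0.78) and Vpreb1 (-0.73, SE 0.47) were also negative and did not pass, with adjusted p of 0.496 and 0.51 by edgeR. The median log2 change of the 8 tested members was -1.08, and that of all tested genes 0.08.

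In old mice, 0 of the 8 tested members passed between het and control by edgeR, where 0% of all tested genes did. Unadjusted p-values under 0.05 were found for Dntt and Ebf1, against 3.58% of tested genes, and DESeq2 and limma-voom called 0 members. With every gene that had a count in the edgeR fit, Dntt passed at -3.04 (adjusted p = 8.659e-05), as did 0.0584% of all genes. Old control 1 held 90.87% of all Dntt counts, and with the filter the log2 change without that library was -0.37. Old hets 1 and 3 lay above every old control for Ebf1, whereas old het 2 lay between old controls 1 and 2, and the log2 change of Ebf1 was 1.37 (SE 0.57, adjusted p = 0.999, edgeR). Pax5 had a log2 change of 1.72 (SE 0.86, adjusted p = 0.999, edgeR), with old het 2 again within the range of the controls. No tested member had old het and old control libraries apart, a state that 11.1% of tested genes showed in either direction. Averaged over both ages, 0 members passed by edgeR (0% of all tested genes) and 2 had an unadjusted p under 0.05, Rag1 and Dntt, against 5.80% of tested genes, while DESeq2 and limma-voom called 0. The edgeR fit of every gene with a count called 1 member there, Dntt, and 0.122% of all genes. With the filter, the log2 change of Dntt over both ages was -2.67, and -1.34 without old control 1.

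The difference between the het effects at the 2 ages was tested directly. By edgeR's quasi-likelihood test, 0 members passed, against 0.0849% of tested genes, and 2 had an unadjusted p under 0.05, against 12.8% of tested genes, while DESeq2 called 1, beside 2.79% of all tested genes, and limma-voom 0. Ebf1 had the difference with the smallest p of the members, a log2 value of 3.06 (SE 0.79, adjusted p = 0.106, edgeR), and it was past the threshold by DESeq2 (3.14, adjusted p = 0.0053). Over the 12 edgeR fits that left out 1 library each, the value for Ebf1 ran from 2.76 to 3.48 and passed in 2. These were without old het 2 (3.48, adjusted p = 0.0185, with 2.77% of all genes called) and without young control 3 (3.25, adjusted p = 0.0445, with 1.35% called). In the other fits it did not pass, with an adjusted p of up to 0.374. It was 0.187 without old control 1 and 0.0766 without both old control 1 and young control 3. The same difference for Pax5 was 2.99 (SE 1.17, adjusted p = 0.276, edgeR). The age and het comparisons share the same libraries, so the values of a gene in them are not independent.

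Other genes of the B lineage were read from chosen lists. Between old and young controls, 23.1% of all tested genes had an unadjusted p under 0.05, beside the shares of calls given above. Of 20 listed B lineage transcription factors, 14 were tested. Between old and young controls 1 of them was higher and 0 lower: Irf8, a factor of monocytes, dendritic cells and B cells, with a log2 change of 1.25 (adjusted p = 0.0492, edgeR) that did not pass in 5 of the fits that left out a library. DESeq2 and limma-voom each called 2 here, Irf8 and Cbfb, the latter at 1.75 by DESeq2 (adjusted p = 0.0232). Of 23 genes of the pre-B receptor, its co-receptors and signalling, 13 were tested and 2 were lower in old controls. These were Vpreb2 (-6.35, adjusted p = 0.0303, and 0.125 without old control 1) and Cd24a (-1.88, adjusted p = 0.00298), the latter encoding a surface glycoprotein of many immature blood cells. Both were also called by limma-voom, and DESeq2 called 4, these and Il2rg and Socs2. Of 13 genes of V(D)J recombination and end joining, 11 were tested and 0 passed between old and young controls by edgeR, with 0 at an unadjusted p under 0.05 and 0 by DESeq2 or limma-voom. Of 16 early lymphoid progenitor genes, 9 were tested and 1 was higher, Cd27 at 2.79 (adjusted p = 0.0169), which without old control 1 was 0.98 (adjusted p = 0.37). Here DESeq2 called 1 other gene, Cd93, and limma-voom 0. In het against control, edgeR called 0 genes of these 4 lists at either age. At an unadjusted p under 0.05 the young comparison held 3 transcription factors, 2 pre-B genes, 0 recombination genes and 1 early lymphoid gene, and the old comparison 0, 1, 0 and 2 in the same order. DESeq2 called 1 of them, Id2, an inhibitor of E proteins, in young hets (log2 change -1.82, adjusted p = 0.0118), where edgeR gave -1.75 (adjusted p = 0.0969), and limma-voom called 0.

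Markers of mature lymphoid cells were checked beside these values. Summed over 11 genes, the mature B cell list was 93.5 to 146 CPM in young controls, 117 to 158 in young hets, 102 to 208 in old controls and 141 to 184 in old hets. Ms4a1, the CD20 antigen of B cells, was at 8.52 CPM or below in every library. Of the 5 tested mature B cell genes, 0 passed between old and young controls by edgeR, DESeq2 or limma-voom, and 0 had an unadjusted p under 0.05, against 23.1% of all tested genes. The T cell list of 14 genes summed to 134 CPM in old control 1 and to 5.38 to 46.9 CPM in the other 11 libraries. The part of mature lymphoid cells in the Pax5, Ebf1 and Vpreb1 result was not tested.

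The genes closest in pattern were taken for the 3 members with the highest mean levels, by Pearson's r of log2 CPM over the 12 libraries, which share differences of depth and RNA composition. For Ebf1 they were Hddc2 (r = 0.97), Cdk11b (0.96), Adamts18 (0.95), Arl6ip4 (0.95) and Rrp15 (0.95). For Vpreb1 they were Cdk10 (0.95), Alad (0.95), Pnp (0.93), Psmc3 (0.93) and Tnpo2 (0.92). For Dntt they were Cd74 (0.88), Rai14 (0.88), H2-Eb1 (0.86), Tox (0.86) and Lck (0.85). Without old control 1 the r of Cd74 with Dntt was 0.75 over 11 libraries, that of Rai14 was 0.96, that of H2-Eb1 0.71, that of Tox 0.76 and that of Lck 0.81.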

How the data were processed

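Whole-number counts per gene symbol were deposited by the authors in 1 table, not normalized. The submitters' processing notes list build mm9 with STAR 2.4, HTSeq 0.6.1 and DESeq2, with no role or order, and the sources used here give neither strand nor annotation. Sequences came from RefSeq tables of build GRCm38.p6, and 9 of the 10 members matched by symbol.

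From the deposited counts, edgeR 4.0.16 in R 4.3.3 fitted the 4 groups together with TMM scaling and no covariate, after filterByExpr (minimum count 10, minimum total 15). Its quasi-likelihood F test was adjusted by the Benjamini-Hochberg method over 10604 genes, with a threshold of 0.05. The SE is the absolute log2 change divided by the square root of F. CPM used TMM-scaled totals of the tested genes, and limits for counts of 0 rest on 3 counts and cover counting error only. Replicates were numbered in accession order, which pairs nothing, and every pair of libraries within a group differed by more than sampling noise (chi-square over its degrees of freedom 5.22 to 50.9).

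The members and lists were chosen with earlier results of these data known. All members are named, with list genes past the threshold, defining markers, and the 5 genes with the highest r to each of 3 members. Alternatives were DESeq2 1.42.0, limma-voom (limma 3.58.1), other scalings and filters, compared groups alone, mitochondrial rRNA share as a covariate and leaving out each library. Fits without old control 1 and young control 3, and with Vpreb1 and Vpreb2 summed, were chosen after seeing the data. The steps were tested on simulated data.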

Additional observations from a re-analysis of the deposited data

How the results depend on the processing

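Pax5, Ebf1 and Vpreb1 stayed lower in old than in young controls, past the threshold, in each fit that left out 1 library (log2 changes of -4.62 to -4.05, -3.55 to -3.25 and -2.85 to -2.02), under each scaling, and without old control 1 and young control 3. With each library's share of mitochondrial rRNA in the fit, 0 members passed between controls and 1, Vpreb1, over both genotypes (log2 change -2.32, adjusted p = 0.00963). DESeq2 called 1 member, Ebf1, in young het against young control and 1, Ebf1, in the difference of het effects, where fits that left out 1 library called 0 to 1. When every gene with a count was tested, 1 member, Dntt, passed as lower in hets in young mice, in old mice and on average. The same fit called 1.37%, 0.0584% and 0.122% of all genes there, in that order. It also called Dntt higher in old than in young controls (2.12, adjusted p = 0.00188) and over both genotypes (1.71, adjusted p = 0.000333). That fit was not repeated without old control 1. With the filter, the values without that library were -0.58 between controls and 0.39 over both genotypes. The cause was not tested. Of 134 counts of members called under alternatives, 125 stayed within 1.5 times the reported count and none of the log2 changes past the threshold turned sign. Counts of Igll1, Cd79a, Cd79b, Rag1 and Blnk were few, so that modest differences in these genes were not detectable at this depth. No paired analysis was possible because replicate numbers follow accession order and pair no libraries.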
